A study of Mus musculus and Rattus norvegicus with 30 samples.

Results

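The estrogen-related receptors ERRalpha and ERRgamma were knocked down with siRNA in neonatal rat ventricular myocytes, and the transcriptome of 3 such cultures kept in vehicle was compared with that of 3 cultures given a scramble siRNA and the same vehicle. The comparison uses 6 of the 30 samples of the study; the remainder are 6 rat libraries treated with a pan-ERR agonist, named 915, and 18 mouse samples that were not analysed here. The rat table holds 32545 genes, of which 9390 have no count in any rat library and 15181 passed the low-count filter and were tested. The libraries are the knockdown replicates 1 to 3 (siRNA against Esrra and Esrrg, DMSO for 24 h) and the scramble replicates 1 to 3 (scramble siRNA, DMSO for 24 h).

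All cultures came from rat pups of postnatal day 3. The ventricular cells had been plated for 90 min so that fibroblasts could attach and be left behind, were cultured with 100 µM bromodeoxyuridine, and were then kept in medium with insulin, transferrin and selenium. The siRNAs were typically used at 25 nM in 24-well plates, and the protocol, written for all knockdowns of the study, also names siRNAs against Esrrb and E2f1. The labels give 3 replicates per group without saying whether they came from separate isolations, so the p-values measure the spread between these samples, which may be technical. RNA was selected by its poly(A) tail and sequenced in pairs without keeping the strand. The 6 libraries held 15813219 to 17849628 counts, and 99.93% of all counts in the rat libraries fell in the genes tested.

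ERRalpha, ERRbeta and ERRgamma, encoded by Esrra, Esrrb and Esrrg, are orphan nuclear receptors that bind a half-site element as monomers or dimers and depend on coactivators of the PGC-1 family rather than on a steroid ligand. In heart muscle, which draws most of its ATP from mitochondrial oxidation of fatty acids, they are known as activators of genes for fatty acid oxidation, the TCA cycle, the respiratory chain and ATP synthase, and also of genes for contraction and conduction. The rise of these programmes around birth, when the heart turns from glucose and lactate to fatty acids, depends on them in the mouse.

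Both targeted transcripts were low in every knockdown library. Esrra had 14.0, 21.9 and 16.1 CPM (counts scaled to a common TMM library size) in knockdown cells, against 199, 178 and 169 CPM in scramble cells. Esrrg had 18.7, 18.1 and 17.5 CPM in knockdown cells and 131, 130.3 and 131 CPM in scramble cells. Neither gene's groups overlapped, and the log2 fold change, knockdown over scramble throughout, was -3.39 for Esrra (SE 0.17, adjusted p = 4.39e-07) and -2.85 for Esrrg (SE 0.11, adjusted p = 5.81e-11; edgeR quasi-likelihood test with Benjamini-Hochberg adjustment over all genes tested, as for every adjusted p given here without another name). Esrra lies at chr1:222168730-222178725, - strand, and Esrrg at chr13:106463368-106683436, + strand of rn6. Since the libraries keep no strand, reads of Esrra cannot be told from those of Trmt112 on the opposite strand where the 2 genes overlap. The same limit holds, among genes given below with library values, for Tnni3 with Dnaaf3, Fabp3 with Zcchc17, Cpt1b with Chkb, Idh2 with Zfp710 and Pln with Cep85l.

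The third receptor, Esrrb, was low in both groups. It had 1.06, 0.665 and 1.19 CPM in knockdown cells and 3.29, 3.01 and 4.43 CPM in scramble cells, without overlap (log2 -1.88, adjusted p = 1.06e-05). E2f1, the other gene named in the siRNA protocol and looked up for that reason, was at 14.6, 14.2 and 15.5 CPM in knockdown cells and 19.7, 17.2 and 15.2 CPM in scramble cells, with overlapping groups (log2 -0.24, adjusted p = 0.231). Per kilobase of transcript the receptors kept 1 order in both groups: Esrra averaged 8.04 CPM per kb in knockdown cells and 84.6 in scramble cells, Esrrg 3.39 in knockdown cells and 24.5 in scramble cells, and Esrrb 0.745 in knockdown cells and 2.75 in scramble cells.

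Of the 14 genes listed as ERR receptors and their coregulators, 6 fell and none rose (42.9% called, against 20.4% of all genes tested). Perm1, a muscle coactivator that is itself induced by PGC-1 and ERR, had 8.69, 7.98 and 7.48 CPM in knockdown cells, against 103, 104 and 104 CPM in scramble cells. The knockdown libraries were all far below the scramble libraries, at a log2 fold change of -3.68 (SE 0.079, adjusted p = 5.35e-21); Perm1 lies at chr5:173640780-173646073, + strand. Ppargc1b, which encodes PGC-1beta, had 35.3, 32.4 and 30.3 CPM in knockdown cells and 57.5, 51.6 and 54.9 CPM in scramble cells and fell (log2 -0.74, adjusted p = 6.27e-05). Ppargc1a, which encodes PGC-1alpha, stood slightly above, at 27.1, 26.3 and 25.7 CPM in knockdown cells and 24.7, 20.5 and 25.0 CPM in scramble cells, and did not pass the test (log2 0.17, adjusted p = 0.257). The log2 ratio of Ppargc1a to Ppargc1b was -0.31 in knockdown cells and -1.23 in scramble cells on average, without overlap between libraries. The sixth gene to fall was Prox1, a homeobox corepressor of ERRalpha in mouse liver and a factor of muscle development; it is named here after its values were seen, at 29.6, 25.8 and 31.8 CPM in knockdown cells and 74.9, 66.2 and 63.8 CPM in scramble cells (log2 -1.23, adjusted p = 7.20e-05).

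Across all genes, 3099 of 15181 passed an adjusted p of 0.05 (20.4%). Of these 1923 fell (12.7% of genes tested) and 1176 rose (7.75%). These shares are the background for the counts of each list given below. The falls were larger: their median log2 fold change was -0.43, against 0.32 for the rises, and 246 genes fell by at least 2-fold while 81 rose by as much. At 4-fold the counts were 59 and 9. The knockdown libraries lay below every scramble library for 1884 of the genes that fell, and above every one for 1149 of those that rose. The median log2 fold change of all genes tested was 0.01. The authors' deposited table gives 2810 genes an adjusted p below 0.05 in the same comparison; 2636 of them passed here too, none with the opposite sign. Among 238 lincRNA genes tested, 13 passed (5.46%).

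**Figure D1:**
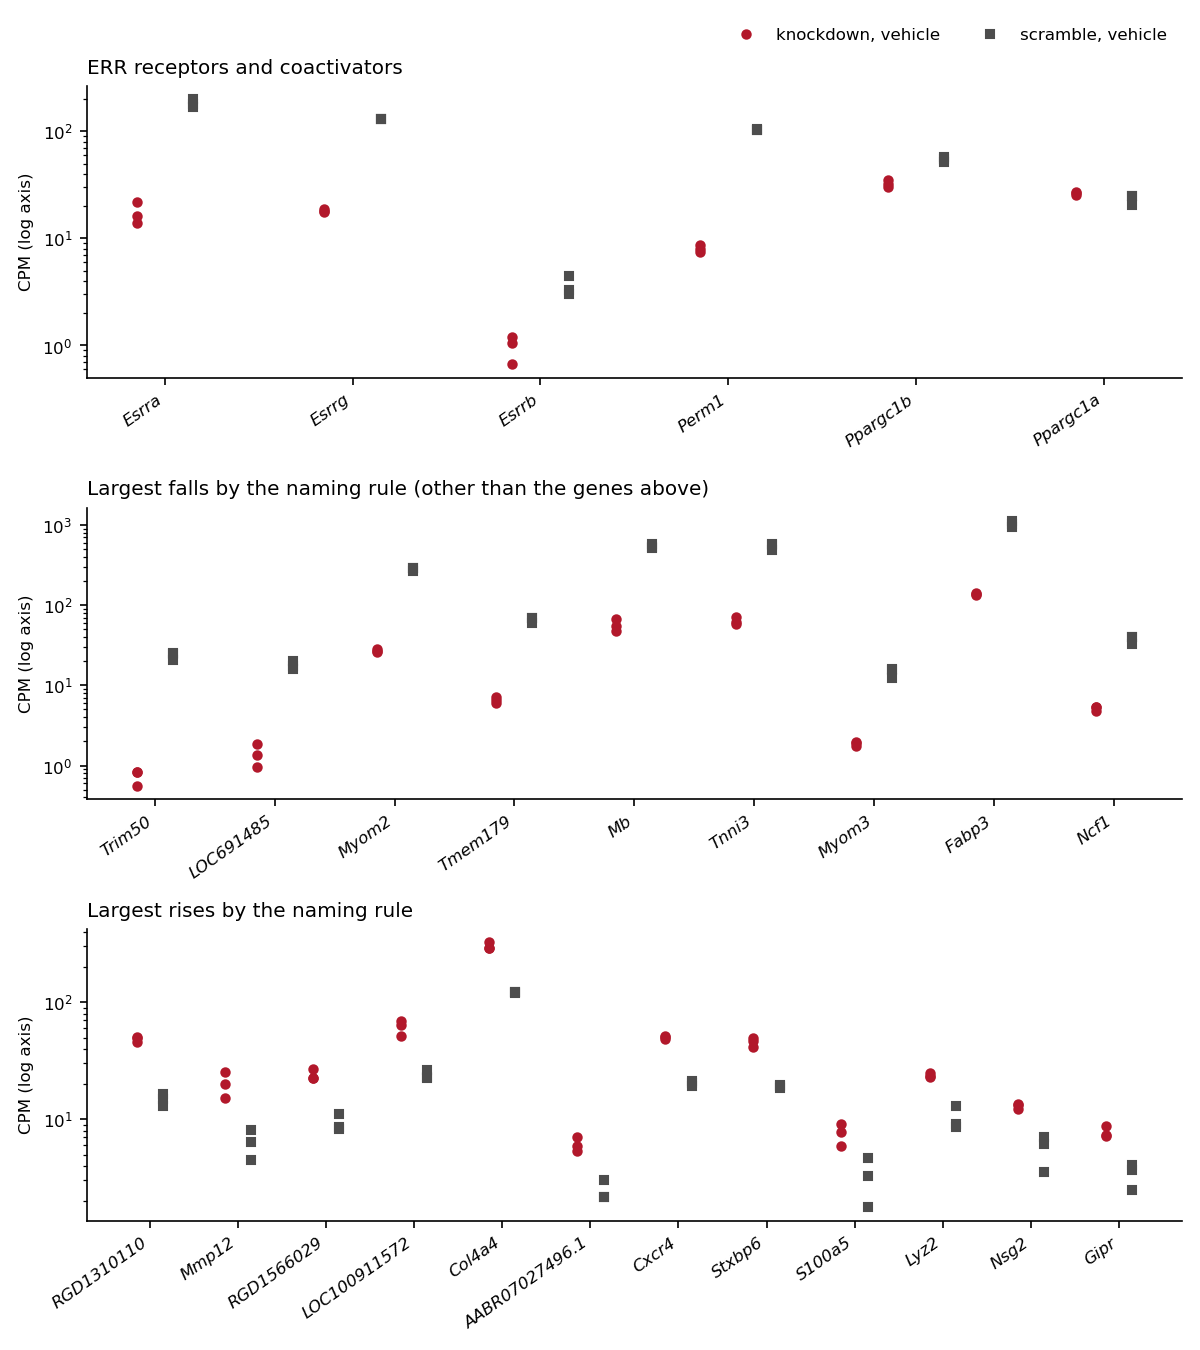
CPM (log axis) of single genes in each of the 3 knockdown libraries (red circles) and 3 scramble libraries (grey squares), all in vehicle, for the ERR receptors and coactivators and for the largest falls and rises named by the rule given with the processing. The groups are apart in every gene shown, by least for Ppargc1a, which did not pass the test.

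The deepest fall among genes of at least 5 CPM was that of Trim50, which encodes a ubiquitin ligase of the TRIM family. Trim50 had 0.557, 0.831 and 0.832 CPM in knockdown cells, against 25.5, 24.9 and 20.9 CPM in scramble cells. Every knockdown library was under 1 CPM and every scramble library above 20 CPM (log2 -4.996, adjusted p = 7.73e-18). Next came the unnamed gene LOC691485 (log2 -3.69) and Perm1, then Esrra, and then Myom2, the gene of the M-band protein myomesin 2. Myom2 had 26.5, 28.6 and 26.4 CPM in knockdown cells and 291, 263 and 286 CPM in scramble cells (log2 -3.37, adjusted p = 7.50e-21). Its relative Myom3 was lower throughout, at 1.73, 1.94 and 1.90 CPM in knockdown cells and 15.7, 16.0 and 12.5 CPM in scramble cells (log2 -2.99, adjusted p = 1.97e-10).

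Myoglobin, the oxygen store of the myocyte, was among the same genes. Mb had 67.3, 48.2 and 54.2 CPM in knockdown cells, against 573, 519 and 533 CPM in scramble cells. The highest knockdown library was far below the lowest scramble library (log2 -3.26, adjusted p = 8.48e-09), and per kilobase Mb averaged 59.8 CPM per kb in knockdown cells and 573 in scramble cells. Tnni3, the adult cardiac form of the inhibitory troponin subunit, had 70.3, 58.5 and 61.8 CPM in knockdown cells and 580.3, 487 and 558 CPM in scramble cells (log2 -3.09, adjusted p = 6.47e-07). Fabp3, the heart's cytosolic fatty acid binding protein, had 142, 139 and 135 CPM in knockdown cells and 1126, 935 and 1026 CPM in scramble cells (log2 -2.89, adjusted p = 1.48e-08). All 3 genes were apart between the groups. By level per kilobase Fabp3 ranked 339th in knockdown cells and 24th in scramble cells among the genes tested. The other 2 of the 12 largest falls outside the receptors were Tmem179, a membrane protein (log2 -3.32), and Ncf1, a subunit of the phagocyte NADPH oxidase (log2 -2.87).

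Genes that bring fatty acids into the cell and activate them fell in most cases: of 12 tested, 8 fell and 1 rose, with a median log2 fold change of -0.61, against 0.01 over all genes tested. Besides Fabp3 they include Acsl1, the main long-chain acyl-CoA synthetase of heart, at 328, 306 and 313 CPM in knockdown cells and 707, 638 and 698 CPM in scramble cells (log2 -1.11, adjusted p = 2.34e-13). Slc27a1, a fatty acid transporter, also fell (log2 -0.53), as did the thioesterase gene Acot13 (log2 -0.96). The member that rose was another synthetase, Acsl5, at 121, 125 and 127 CPM in knockdown cells and 87.8, 89.8 and 88.9 CPM in scramble cells (log2 0.49, adjusted p = 8.96e-08).

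All 9 genes of the carnitine shuttle, which carries long-chain acyl groups into mitochondria, passed the test: 7 fell and 2 rose, with a median of -0.70. Cpt1b, the muscle form of the outer-membrane transferase, had 188, 184 and 179 CPM in knockdown cells, against 433, 393 and 436 CPM in scramble cells. Cpt2, on the inner membrane, had 54.6, 48.1 and 53.4 CPM in knockdown cells and 151, 141 and 147 CPM in scramble cells. Both were apart between the groups, at log2 fold changes of -1.20 and -1.49 (adjusted p = 5.90e-10 and 3.08e-15). The liver form Cpt1a fell by less (log2 -0.42), and the carrier Slc25a20 lay between (log2 -0.70). The 2 that rose were the brain form Cpt1c (log2 0.29) and the plasma membrane carnitine transporter Slc22a5 (log2 0.33); the call of Slc22a5 was lost without knockdown replicate 1 (adjusted p = 0.0569) or scramble replicate 2 (adjusted p = 0.0504).

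Of the 17 genes of mitochondrial beta-oxidation tested, 16 fell and none rose, with a median of -0.93. Acadm, the medium-chain acyl-CoA dehydrogenase, led them at 73.1, 81.8 and 72.4 CPM in knockdown cells and 318, 277 and 289.9 CPM in scramble cells. No library of either group came near the other (log2 -1.96, adjusted p = 3.64e-14). Etfdh, which passes electrons from the dehydrogenases to ubiquinone, had a log2 fold change of -1.23, the very-long-chain dehydrogenase Acadvl one of -1.18, the thiolase Acaa2 one of -1.10 and the trifunctional protein subunit Hadhb one of -0.98; all 4 passed. As a share of all counts, the genes of fatty acid uptake, shuttle and oxidation together took 0.509% ± 0.00892 in knockdown cells and 0.920% ± 0.0389 in scramble cells (SD, n = 3 each; exact permutation test, 2-sided p = 0.1, the smallest that 3 against 3 allows).

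Lipid storage and peroxisomes were less uniform. Of 20 lipid droplet and triglyceride genes, 8 fell and 1 rose. Plin5, the droplet coat protein that tethers droplets to mitochondria, had 4.90, 6.54 and 5.11 CPM in knockdown cells and 31.1, 27.2 and 30.9 CPM in scramble cells (log2 -2.43, adjusted p = 2.84e-09), while the widely expressed coat protein Plin2 stood at 197, 188 and 196 CPM in knockdown cells and 183, 188 and 196 CPM in scramble cells, with overlapping groups. The lipase inhibitor G0s2 fell (log2 -0.99) and the monoglyceride lipase Mgll rose (log2 0.43). Of 23 peroxisomal genes 8 fell, led by the phytanoyl-CoA hydroxylase Phyh (log2 -1.03), and 1 rose (none without knockdown replicate 2 or 3 or scramble replicate 3); the median was -0.16.

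Pyruvate entry and the TCA cycle fell together. Of 14 genes of pyruvate dehydrogenase and pyruvate entry, 11 fell and none rose, with a median of -0.63. Pdk4, the kinase that switches pyruvate dehydrogenase off, had 188, 163 and 166 CPM in knockdown cells and 359.5, 303 and 347 CPM in scramble cells (log2 -0.97, adjusted p = 4.77e-07), and the mitochondrial pyruvate carrier subunit Mpc2 had 50.6, 54.8 and 48.0 CPM in knockdown cells and 105, 91.2 and 93.4 CPM in scramble cells (log2 -0.91, adjusted p = 9.40e-10). Both the kinase and parts of the enzyme it acts on, such as Dlat (log2 -0.90) and Pdhb (log2 -0.81), were lower in knockdown cells.

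Of the 17 TCA cycle genes tested, 16 fell, 7 of them by at least 2-fold, and none rose; the median was -0.86. Idh2, the NADP-dependent isocitrate dehydrogenase of mitochondria, had 147, 139 and 139 CPM in knockdown cells, against 445, 417 and 437 CPM in scramble cells. The highest knockdown library was under the lowest scramble library by a wide margin (log2 -1.61, adjusted p = 4.65e-17). Idh3a (log2 -1.04) and the succinyltransferase Dlst (log2 -1.02) also fell. So did Mdh1 (log2 -1.07), which is counted in this list although it encodes the cytosolic malate dehydrogenase.

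**Figure D2:**
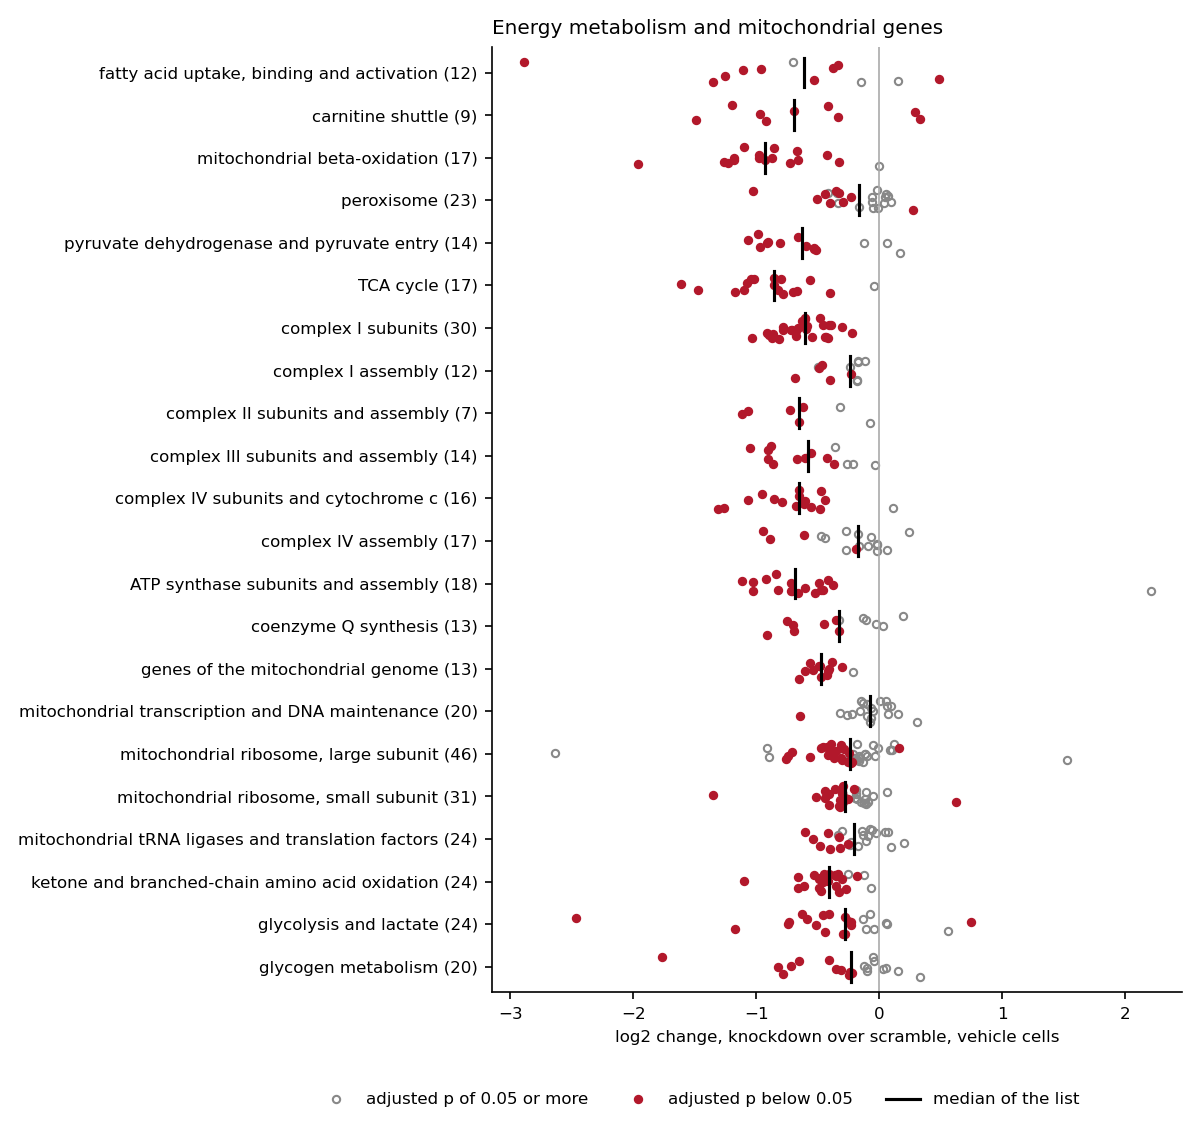
Log2 fold change, knockdown over scramble in vehicle, of every tested gene (points) of 22 lists of energy metabolism and mitochondrial function, with the number tested in parentheses. Filled red points passed an adjusted p of 0.05, open points did not, and the black line is the median; the medians of the complex I and complex IV subunits lie left of those of their assembly factors.

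The structural subunits of the respiratory chain fell almost without exception. All 30 nuclear-encoded complex I subunits tested fell (median -0.60), as did 15 of 16 genes of complex IV and cytochrome c (median -0.65) and 17 of 18 of ATP synthase (median -0.68). Without knockdown replicate 3 or scramble replicate 1, 26 of the complex I subunits fell. Of complex II, 5 of 7 genes fell, and of complex III 10 of 14; no gene of these 5 lists rose. Cycs, the cytochrome c gene, given by the more abundant of 2 identifiers with that symbol, had 95.7, 99.0 and 93.8 CPM in knockdown cells and 238, 213 and 243 CPM in scramble cells (log2 -1.27, adjusted p = 2.62e-14). Sdha, the flavoprotein of succinate dehydrogenase, had 154, 151 and 162 CPM in knockdown cells and 354, 325 and 332 CPM in scramble cells (log2 -1.11, adjusted p = 1.58e-14). The ATP synthase subunits Atp5a1 and Atp5b both had a log2 fold change of -1.03, Atp5b at 1304, 1291 and 1269 CPM in knockdown cells and 2759.7, 2485 and 2619 CPM in scramble cells. Among the leaders of the other complexes were Ndufv2 of complex I (log2 -0.91), Cyc1 of complex III (log2 -1.05) and Cox5a of complex IV (log2 -1.06).

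Assembly factors moved less. Of 12 complex I assembly genes 5 fell (3 without knockdown replicate 3 or scramble replicate 1) at a median of -0.23, and of 17 complex IV assembly genes 4 fell at a median of -0.17; none rose in either list. Ndufaf4 led the complex I factors (log2 -0.68, adjusted p = 7.66e-07) and Cox10, which makes heme for complex IV, led the others (log2 -0.95, adjusted p = 1.29e-08). Genes of coenzyme Q synthesis fell in 7 of 13 cases, led by Adck3 (log2 -0.91). The nuclear genes of the respiratory chain and ATP synthase together held 0.951% ± 0.0157 of all counts in knockdown cells and 1.52% ± 0.0831 in scramble cells (SD, n = 3 each), without overlap.

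The genes carried by mitochondrial DNA fell by less than the nuclear subunits: 12 of 13 fell, at a median of -0.48. In a fit of the 6 vehicle libraries alone 8 fell, and without scramble replicate 3 10 fell. Mt-cytb, cytochrome b of complex III, had 4059, 3684 and 4141 CPM in knockdown cells and 6028, 5405 and 6668 CPM in scramble cells (log2 -0.61, adjusted p = 3.77e-07). Mt-co1, the most abundant transcript per kilobase in both groups, had 19735, 18101 and 20235 CPM in knockdown cells and 25558, 23746 and 27732 CPM in scramble cells (log2 -0.41, adjusted p = 6.23e-05). The groups did not overlap in either gene. The mitochondrial genome took 4.87% ± 0.398 of counts in knockdown cells and 6.13% ± 0.539 in scramble cells (SD, n = 3 each).

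Nuclear genes that transcribe and maintain mitochondrial DNA were mostly not called. Of 20 such genes, 1 fell and none rose, at a median of -0.07 (2 fell without scramble replicate 2, and 1 rose without scramble replicate 1). The gene that fell was Lrpprc, which stabilises mitochondrial mRNA, at 118, 120.4 and 111 CPM in knockdown cells and 184, 172 and 190.1 CPM in scramble cells (log2 -0.65, adjusted p = 1.18e-09). Tfam, the packaging and transcription factor, looked up here for its role, was at 42.4, 45.1 and 45.6 CPM in knockdown cells and 46.3, 44.9 and 48.6 CPM in scramble cells, with overlapping groups (log2 -0.07, adjusted p = 0.564). Mitochondrial ribosome genes lay between: 21 of 46 of the large subunit and 18 of 31 of the small subunit fell, at medians of -0.24 and -0.28. These counts rested on few libraries, with 9 falls in the large subunit without scramble replicate 1 and 13 without knockdown replicate 3, and 11 in the small subunit without either. Mrpl12 (log2 -0.76) led the falls of the large subunit list. Mrps36 (log2 -1.35) led those of the small subunit list, where it stands by its symbol. Whether the product of Mrps36 belongs to the ribosome was not tested. Mrps6 rose (log2 0.62, adjusted p = 9.56e-07).

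Other mitochondrial groups fell in part and hardly rose. Of 34 genes of import, chaperones and proteases 19 fell, among them the chaperonin Hspd1 (log2 -0.67) and the protease Afg3l2 (log2 -0.69). Of 19 genes of membrane shape, fusion and fission 12 fell, led by the fission protein Mtfp1 (log2 -1.67) and with the cristae protein Immt (log2 -0.64) and the fusion protein Mfn1 (log2 -0.55) among them. Of 35 mitochondrial carriers 16 fell and 1 rose; none rose in 4 of the 6 fits without a vehicle library (knockdown replicates 1 and 2, scramble replicates 1 and 3), and 2 rose without scramble replicate 2. Slc25a30, a carrier of kidney and muscle mitochondria, had 16.0, 17.96 and 16.2 CPM in knockdown cells and 93.3, 87.3 and 90.8 CPM in scramble cells (log2 -2.43, adjusted p = 3.11e-18). The ADP/ATP carriers Slc25a4 and Slc25a5 fell by similar amounts (log2 -1.09 and -0.99). Ucp3, the uncoupling protein of muscle, had 5.46, 4.16 and 6.12 CPM in knockdown cells and 18.3, 15.8 and 17.8 CPM in scramble cells (log2 -1.72, adjusted p = 4.78e-07). Of the pore and calcium genes, the permeability regulator Ppif fell most (log2 -1.23). Antioxidant enzymes fell in 14 of 24 cases (10 without scramble replicate 1), including the NADPH-producing transhydrogenase Nnt (log2 -1.12) and the mitochondrial superoxide dismutase Sod2 (log2 -0.74).

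The phosphocreatine shuttle, which carries ATP from mitochondria to myofibrils, fell with them: of 14 genes in its list with myoglobin, 10 fell and 1 rose. Ckm, muscle creatine kinase, had 50.1, 42.6 and 44.0 CPM in knockdown cells and 189, 186 and 193 CPM in scramble cells (log2 -2.05, adjusted p = 1.28e-12). Ckmt2, its mitochondrial partner in muscle, was scarce, at 0.334, 0.388 and 0.535 CPM in knockdown cells and 3.11, 2.42 and 4.30 CPM in scramble cells (log2 -2.95, adjusted p = 6.01e-07). Neither gene's groups overlapped. The creatine transporter Slc6a8 fell (log2 -0.85), as did adenylate kinase 1, Ak1 (log2 -1.23). The member that rose was the brain form of creatine kinase, Ckb, at 290.1, 311 and 293 CPM in knockdown cells and 235, 268 and 272 CPM in scramble cells (log2 0.21, adjusted p = 0.0447); its call was lost in 5 of the 6 fits that leave out a vehicle library (adjusted p of 0.0517 to 0.209).

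Genes of glucose use fell in most cases too. Of 24 genes of glycolysis and lactate 16 fell and 1 rose, at a median of -0.28. Slc2a4, the insulin-responsive glucose transporter, had 18.1, 14.6 and 14.7 CPM in knockdown cells and 38.7, 34.0 and 34.4 CPM in scramble cells (log2 -1.18, adjusted p = 3.48e-10), while the basal transporter Slc2a1 had 139.7, 129.9 and 135 CPM in knockdown cells and 157, 143 and 143 CPM in scramble cells and did not pass the test (log2 -0.13, adjusted p = 0.0677). Both lactate dehydrogenase genes fell, Ldhb (log2 -0.73) further than Ldha (log2 -0.28). The gene that rose was aldolase C, Aldoc, at 23.4, 24.7 and 19.7 CPM in knockdown cells and 15.9, 12.9 and 11.6 CPM in scramble cells (log2 0.75, adjusted p = 4.54e-05). Tpi1 had the largest log2 fold change of the list at -2.47, but its level of 1.23, 1.27 and 1.31 CPM in knockdown cells and 8.29, 7.27 and 5.60 CPM in scramble cells is uncertain, since near-identical copies can share its reads.

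Glycogen genes fell in 11 of 20 cases. Pygm, muscle glycogen phosphorylase, had 135, 119 and 136 CPM in knockdown cells and 462, 405 and 462 CPM in scramble cells (log2 -1.77, adjusted p = 2.33e-05), and glycogen synthase, Gys1, also fell (log2 -0.82). Of 24 genes that oxidise ketone bodies and branched-chain amino acids 21 fell and none rose, at a median of -0.41; Acat1, the mitochondrial thiolase, fell most (log2 -1.10), and Oxct1, which activates ketone bodies, fell less (log2 -0.45). In the list of cholesterol synthesis, 13 of 21 genes fell (9 without knockdown replicate 1 or scramble replicate 2), led by Idi1 (log2 -0.98).

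The contractile apparatus changed unevenly. Of 11 thick filament genes 7 fell and 1 rose, at a median of -0.99. Both cardiac myosin heavy chains fell: Myh6, the fast alpha chain that predominates in adult rodent heart, had 444, 418 and 409 CPM in knockdown cells and 1671, 1595 and 1676 CPM in scramble cells. Myh7, the slow beta chain, had 695, 697 and 669.6 CPM in knockdown cells and 2821, 2549 and 2776 CPM in scramble cells. No knockdown library reached a scramble library in either gene (log2 -1.96, adjusted p = 2.11e-06 for Myh6 and -1.98, adjusted p = 5.70e-06 for Myh7). The log2 ratio of Myh6 to Myh7 overlapped between the groups, at -0.70 on average in knockdown cells and -0.72 in scramble cells. The light chain Myl3 (log2 -1.29), the heavy chain Myh7b (log2 -1.81) and the binding protein Mybpc3 (log2 -0.91) fell, and the light chain kinase Mylk3 rose (log2 0.58, adjusted p = 7.43e-06).

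Thin filament genes were mostly not called: of 18 tested, 4 fell and 2 rose, at a median of -0.03; 1 rose in each fit without a vehicle library other than scramble replicate 3. Beside Tnni3, cardiac actin, Actc1, had 3230.0, 3152 and 3356 CPM in knockdown cells and 5424, 4930.4 and 5542 CPM in scramble cells (log2 -0.71, adjusted p = 5.11e-08). Cardiac troponin T, Tnnt2, looked up as a cardiomyocyte marker, had 3256, 3104 and 2978 CPM in knockdown cells and 3439, 3051 and 3161 CPM in scramble cells, with overlapping groups (log2 -0.05, adjusted p = 0.707). Skeletal actin, Acta1, had 612, 560.5 and 590.1 CPM in knockdown cells and 512, 464 and 543 CPM in scramble cells (log2 0.21, adjusted p = 0.0232); the call was lost in 4 of the 6 fits without a vehicle library (adjusted p of 0.0605 to 0.128). M-band genes fell in 9 of 11 cases, Myom2 and Myom3 among them. Of 29 Z-disc and costamere genes 12 fell and 5 rose: the Z-disc protein Ldb3 had 310.5, 301 and 290.1 CPM in knockdown cells and 651, 598 and 636 CPM in scramble cells (log2 -1.06, adjusted p = 3.28e-07), while its relative Pdlim3 had 298, 327 and 311 CPM in knockdown cells and 204, 232 and 194 CPM in scramble cells (log2 0.57, adjusted p = 1.01e-06).

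Pairs of paralogs were listed with 1 member taken as the form of mature striated muscle. Their ratio does not depend on library scaling, since both members were read in the same library. In a few pairs the member so listed is not particular to mature muscle, among them Camk2a against Camk2d, Cox4i1 against Cox4i2, Ppargc1a against Ppargc1b and Vegfb against Vegfa. The counts below include these pairs. Of 39 pairs with both members tested, the log2 ratio of the muscle-type to the other member was lower in every knockdown library than in every scramble library for 25 pairs, higher for 3, and overlapped for 11. The pairs were chosen with earlier results of these data known, so the counts describe these pairs and test no shift of muscle forms in general. The muscle-type member fell in 31 pairs and rose in 1, and the other member fell in 14 and rose in 6, at median log2 fold changes of -0.91 and -0.12. Fabp3 against Fabp5 moved furthest: the log2 ratio averaged 2.29 in knockdown cells and 5.64 in scramble cells, and Fabp5 itself rose (log2 0.46, adjusted p = 1.06e-04). For Tnni3 against the fetal form Tnni1 the ratio was negative in all 3 knockdown libraries, at -1.89 on average, and positive in all 3 scramble libraries, at 1.03. Tnni1 had 246, 226 and 232 CPM in knockdown cells and 289, 241 and 266 CPM in scramble cells, with overlapping groups (log2 -0.18, adjusted p = 0.15; 0.0391 without scramble replicate 2 and 0.0228 in a fit of the 6 vehicle libraries alone).

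**Figure D3:**
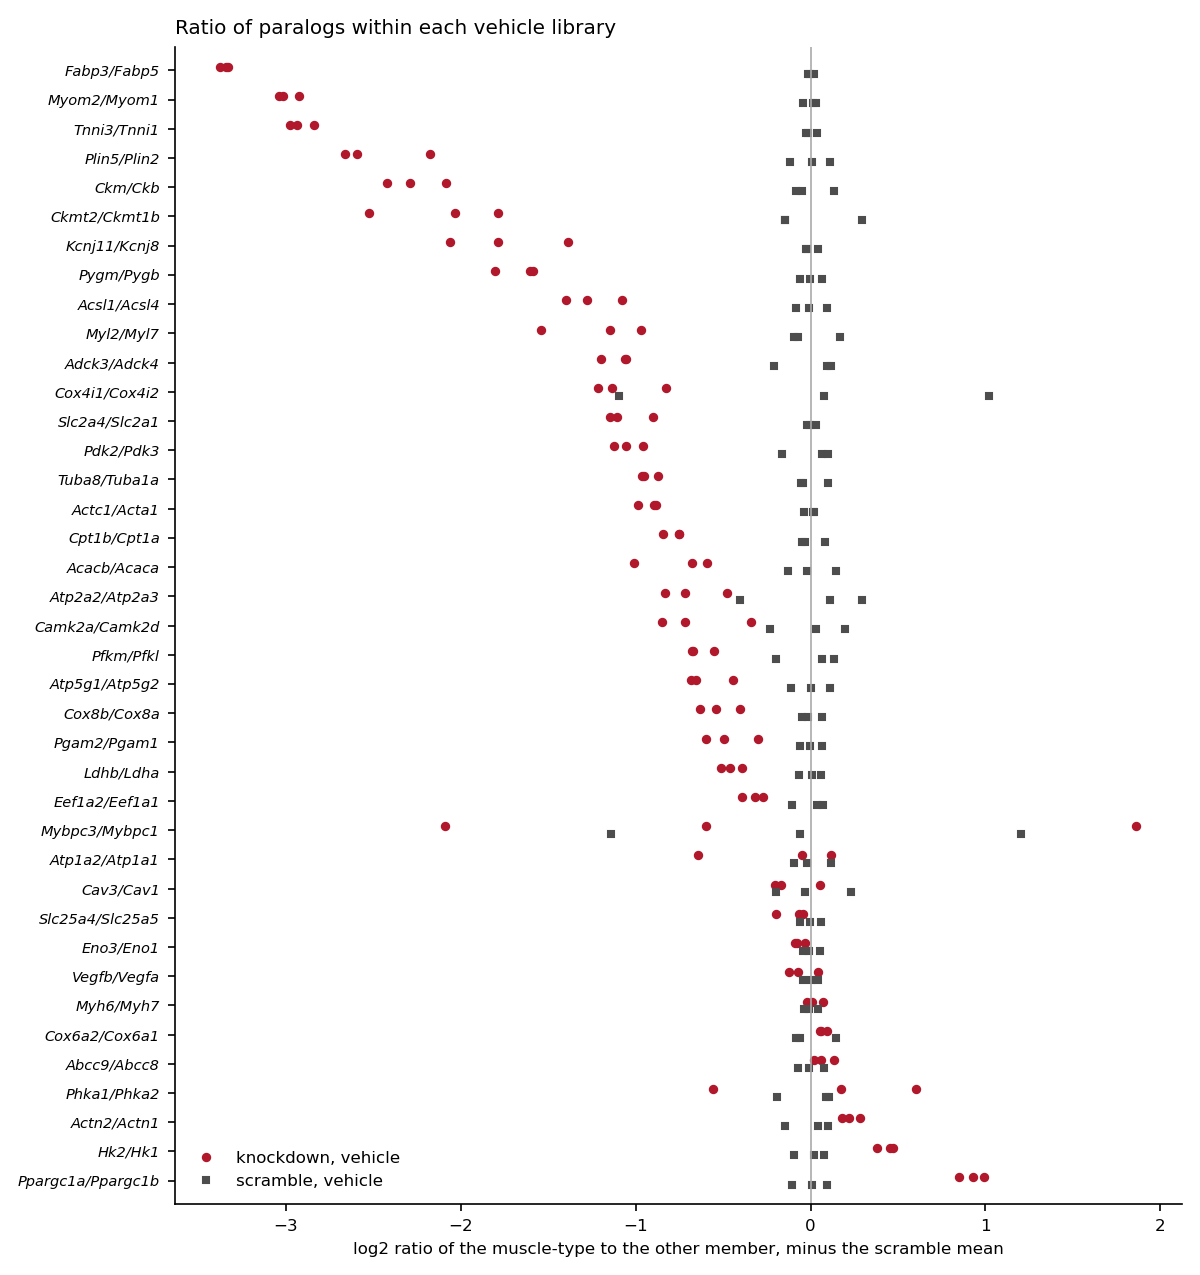
Log2 ratio of the member listed as muscle-type to the other member of 39 paralog pairs in each knockdown library (red circles) and scramble library (grey squares) in vehicle, after the mean of the scramble libraries was subtracted. Pairs are ordered by the mean difference: 25 lie wholly to the left of the scramble libraries and 3 wholly to the right.

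The ratio was also lower in every knockdown library for Plin5 against Plin2, Ckm against Ckb, Pygm against Pygb and Kcnj11 against Kcnj8, the last a pair of potassium channel subunits in which Kcnj11 fell (log2 -0.82) and Kcnj8 rose (log2 0.92). Hk2 against Hk1 was 1 of the 3 pairs with a higher ratio: Hk1 fell (log2 -0.51, adjusted p = 1.17e-08), and Hk2 had 79.9, 78.8 and 74.8 CPM in knockdown cells and 81.04, 82.3 and 82.7 CPM in scramble cells and did not pass (log2 -0.08, adjusted p = 0.383). In several pairs both forms fell by like amounts and the ratios overlapped, as in Slc25a4 and Slc25a5 or in the growth factors Vegfb and Vegfa.

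Genes of calcium handling were split. Of 21 tested, 7 fell and 5 rose (3 rose without scramble replicate 1). Atp2a2, whose product pumps calcium back into the reticulum, had 1667, 1565 and 1600.1 CPM in knockdown cells and 3192, 2884 and 3123 CPM in scramble cells. Its inhibitor Pln had 1039, 974 and 1076 CPM in knockdown cells and 1685, 1520.3 and 1765 CPM in scramble cells. Both fell without overlap (log2 -0.93, adjusted p = 1.78e-11 for Atp2a2 and -0.69, adjusted p = 9.51e-07 for Pln). The T-type calcium channels Cacna1h (log2 -1.28) and Cacna1g (log2 -0.80) fell too. Casq1, the skeletal calsequestrin, rose at 90.5, 92.5 and 92.7 CPM in knockdown cells and 52.8, 45.8 and 48.7 CPM in scramble cells (log2 0.90, adjusted p = 1.36e-09), and so did the junctional protein Trdn (log2 0.43).

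Ion channels of conduction fell more often than they rose, as did all genes tested (12.7% fell and 7.75% rose). Of 12 genes of sodium and pacemaker channels and pumps 8 fell and none rose (66.7% called, against 20.4% of all genes tested). Scn4b, a sodium channel beta subunit, had 3.17, 3.05 and 2.79 CPM in knockdown cells and 17.6, 13.4 and 17.3 CPM in scramble cells (log2 -2.42, adjusted p = 1.89e-11). The pacemaker channels Hcn2 (log2 -1.20) and Hcn4 (log2 -0.54) fell as well. Of 15 potassium channel genes 5 fell and 1 rose (40.0% called), led by the background channel Kcnk3 at 54.7, 58.9 and 49.2 CPM in knockdown cells and 158, 141 and 146 CPM in scramble cells (log2 -1.45, adjusted p = 5.67e-08). Gja1, the gap junction protein connexin 43, fell (log2 -0.65, adjusted p = 1.29e-08). The alpha-1 adrenergic receptors Adra1b (log2 -1.16) and Adra1a (log2 -1.04) fell, and Corin, the protease that activates atrial natriuretic peptide, rose (log2 0.81, adjusted p = 0.00187).

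**Figure D4:**
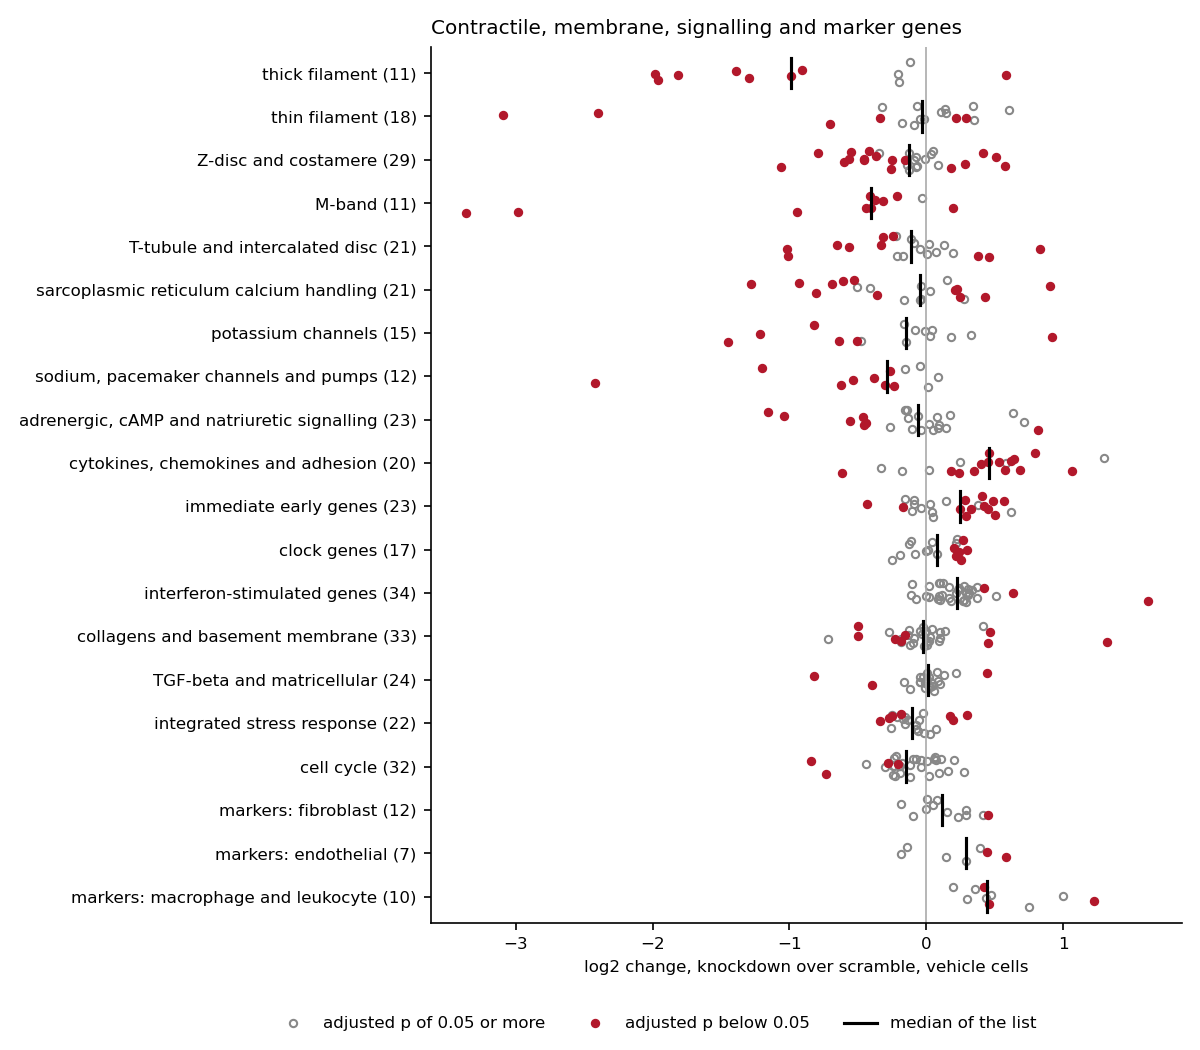
Log2 fold change, knockdown over scramble in vehicle, of every tested gene of 20 lists for contraction, membranes, signalling and cell type markers, drawn as in the plot of energy metabolism lists. The thick filament list has the lowest median, -0.99, and the list of cytokines, chemokines and adhesion lies to the right with a median of 0.46.

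Transcription regulators changed in both directions. Of 1148 genes that the deposited table assigns to a transcription factor family, 91 fell and 97 rose (16.4% called, against 20.4% of all genes). Of 16 PPAR, RXR, thyroid and related receptors, 3 fell and 2 rose, none rising without knockdown replicate 1, knockdown replicate 3 or scramble replicate 2, or in the 6 vehicle libraries alone (1 without any other vehicle library). Ppara, the fatty acid receptor of heart and liver, had 7.30, 6.60 and 5.64 CPM in knockdown cells and 15.7, 18.7 and 17.6 CPM in scramble cells (log2 -1.41, adjusted p = 1.45e-09). Rxrg (log2 -1.22) and the thyroid hormone receptor Thra (log2 -0.40) also fell. Of 20 cardiac transcription factors and regulators 7 fell and 1 rose, 3 falling without knockdown replicate 3 and none rising without knockdown replicate 1, scramble replicate 1 or scramble replicate 2; the titin splicing regulator Rbm20 was among those that fell (log2 -0.66, adjusted p = 3.86e-07), and Gata4 fell slightly (log2 -0.21, adjusted p = 0.00179). Of the 1148 genes assigned to a family, 8 fell by at least 2-fold, a count that does not cover every regulator described here with such a fall. Of genes with such a fall, 4 are named after their values were seen: Hopx, a homeodomain protein of heart development, at 10.6, 13.6 and 14.3 CPM in knockdown cells and 47.7, 42.0 and 43.0 CPM in scramble cells (log2 -1.79), Gata5 (log2 -1.46), the Notch-responsive repressor Heyl (log2 -1.15) and Csdc2 (log2 -1.02).

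Among ubiquitin ligases and proteasome genes 13 of 38 fell and none rose (34.2% called, against 20.4% of all genes tested). Without scramble replicate 1, 9 of them fell. Fbxo32, the atrophy-associated ligase atrogin-1, had 58.2, 60.4 and 61.5 CPM in knockdown cells and 153, 152 and 157 CPM in scramble cells (log2 -1.36, adjusted p = 1.21e-14). Asb18 fell with Trim50 (log2 -2.44). Stress markers gave no common direction: of 18 tested 4 rose and 2 fell (33.3% called). Over all genes tested 7.75% rose and 12.7% fell, so the falls in this list are near that share. Of the markers, 2 rose without knockdown replicate 1, knockdown replicate 3 or scramble replicate 1, and 4 fell in a fit of the 6 vehicle libraries alone. Rcan1, a target and regulator of calcineurin, had 178, 159 and 172 CPM in knockdown cells and 393, 377 and 395 CPM in scramble cells and fell (log2 -1.20, adjusted p = 3.08e-14). The natriuretic peptide gene Nppa had 1064, 1264 and 1063 CPM in knockdown cells and 1319, 1068 and 1158 CPM in scramble cells, with overlapping groups (log2 -0.06, adjusted p = 0.775). Nppb had 108, 125 and 123 CPM in knockdown cells and 150.1, 125 and 153 CPM in scramble cells and did not pass (log2 -0.27, adjusted p = 0.261; adjusted p = 0.0269 when the 6 vehicle libraries were fitted alone). Secreted factors included 2 angiogenic genes that fell, Fgf1 at 187, 169.8 and 181 CPM in knockdown cells and 432, 392 and 432 CPM in scramble cells (log2 -1.22, adjusted p = 2.24e-14) and Vegfa at 275, 261 and 236 CPM in knockdown cells and 508, 459 and 504 CPM in scramble cells (log2 -0.93, adjusted p = 1.47e-10).

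The rises were smaller and met fewer lists. The largest was that of the unnamed gene RGD1310110, at 49.4, 45.7 and 50.1 CPM in knockdown cells and 12.9, 16.5 and 14.9 CPM in scramble cells (log2 1.72, adjusted p = 4.96e-12). Col4a4, a basement membrane collagen chain, was the most abundant of the 12 largest rises, at 293, 326 and 292 CPM in knockdown cells and 123, 123 and 119 CPM in scramble cells. Every knockdown library was far above every scramble library (log2 1.32, adjusted p = 7.72e-13). Cxcr4, the receptor of the chemokine CXCL12, had 48.1, 50.7 and 51.6 CPM in knockdown cells and 20.6, 19.4 and 21.2 CPM in scramble cells (log2 1.297, adjusted p = 1.83e-11). Stxbp6, which binds SNARE proteins of secretion, rose by a log2 fold change of 1.27. Mmp12, macrophage elastase, had 15.1, 19.9 and 25.4 CPM in knockdown cells and 8.11, 4.45 and 6.38 CPM in scramble cells (log2 1.66, adjusted p = 8.06e-04), and Lyz2, lysozyme of myeloid cells, had 25.0, 22.9 and 23.3 CPM in knockdown cells and 9.05, 8.51 and 12.97 CPM in scramble cells (log2 1.22, adjusted p = 6.98e-06). The groups were apart in each of these genes.

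Of 20 tested genes for cytokines, chemokines and adhesion, 13 rose and 1 fell, at a median of 0.46; none fell without knockdown replicate 1, knockdown replicate 3 or scramble replicate 2. The neutrophil chemokine Cxcl1 had 25.5, 21.3 and 30.5 CPM in knockdown cells and 17.3, 16.4 and 15.7 CPM in scramble cells (log2 0.64, adjusted p = 1.20e-04), and the monocyte chemokine Ccl7 had 44.5, 48.3 and 57.5 CPM in knockdown cells and 30.6, 36.0 and 31.2 CPM in scramble cells (log2 0.62, adjusted p = 3.74e-05). The macrophage growth factor Csf1 (log2 0.34), the iron-binding protein Lcn2 (log2 0.57) and the NF-kappaB inhibitor Nfkbia (log2 0.45) rose as well. Of 23 immediate early genes 10 rose and 2 fell (1 without knockdown replicate 3 or scramble replicate 1); Btg2 led the rises (log2 0.57, adjusted p = 2.51e-08), followed by Egr1 (log2 0.50), and the orphan receptor Nr4a1 fell (log2 -0.43). Of 12 macrophage and leukocyte markers listed 10 were tested (Adgre1 and C1qb were too low), 3 rose and none fell, and the summed level of the list was 68.8 to 71.7 CPM in knockdown cells and 43.1 to 45.4 CPM in scramble cells. The pan-leukocyte gene Ptprc was close to its detection limit, at 1.89, 2.11 and 2.44 CPM in knockdown cells and 1.94, 0.196 and 1.04 CPM in scramble cells (log2 1.00, adjusted p = 0.16; 0.0228 without scramble replicate 1). The part of these markers in the rises was not tested.

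Several lists held few calls or counts that moved between settings. Over all genes tested 20.4% were called, 12.7% falling and 7.75% rising. The share called was 8.82% of interferon-stimulated genes, 12.5% of TGF-beta and matricellular genes and 12.5% of cell cycle genes. It was 24.2% of collagens and basement membrane genes, 31.8% of integrated stress response genes and 35.3% of clock genes. Interferon-stimulated genes depended on single libraries: of 34, 3 rose and none fell, while 15 rose without scramble replicate 2, 6 with replicate number as a block and 1 without knockdown replicate 2 or scramble replicate 3. Irf1, one of the 3, had 105, 108 and 114 CPM in knockdown cells and 77.2, 90.1 and 76.6 CPM in scramble cells (log2 0.42, adjusted p = 6.36e-05). With 915, 29 of the 34 rose with the knockdown, and 4 had a called difference between the conditions. Of 24 genes of TGF-beta signalling and matricellular proteins 1 rose, Tgfb2 (log2 0.44, adjusted p = 8.23e-07), and 2 fell; none fell without knockdown replicate 3, and 1 without knockdown replicate 1, scramble replicate 1 or scramble replicate 2. Of 33 collagens and basement membrane genes 3 rose and 5 fell, 1 falling without knockdown replicate 1 and 2 without knockdown replicate 3, scramble replicate 2 or scramble replicate 3, and their summed share of counts overlapped between the groups at 3.83% to 4.23% in knockdown cells and 3.79% to 4.14% in scramble cells. Cell cycle genes fell in 4 of 32 cases (2 without scramble replicate 1), clock genes rose in 6 of 17 (2 without knockdown replicate 2 and 3 without scramble replicate 1), and of 22 genes of the integrated stress response 4 fell and 3 rose; 8 fell in a fit of the 6 vehicle libraries alone, and 1 rose with replicate number as a block or without knockdown replicate 1 or 3 or scramble replicate 2 or 3.

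The label of isolated cardiomyocytes was checked against markers. The 9 cardiomyocyte markers tested, of 10 listed, summed to 11683 to 12065 CPM in knockdown cells and 18065 to 19990 CPM in scramble cells, and 6 fell while 1 rose (none without knockdown replicate 1, 2 or 3 or scramble replicate 2). They are themselves genes of contraction and conduction, and among them Tnnt2 and Ryr2 did not pass, Ryr2 at 889, 831 and 879.6 CPM in knockdown cells and 970.4, 922 and 1019 CPM in scramble cells (log2 -0.16, adjusted p = 0.243; 0.00616 in a fit of the 6 vehicle libraries alone). The 12 fibroblast markers summed to 13362 to 14786 CPM in knockdown cells and 13946 to 15011 CPM in scramble cells, overlapping, with 1 rising, the proteoglycan Dcn (log2 0.45, adjusted p = 4.51e-04), 2 without knockdown replicate 1 or scramble replicate 2 and 3 in the 6 vehicle libraries alone. Endothelial markers summed to 62.0 to 64.8 CPM in knockdown cells and 51.1 to 60.6 CPM in scramble cells, with 2 of the 7 tested rising (none without knockdown replicate 3 or scramble replicate 1, and 1 without knockdown replicate 1 or scramble replicate 3) and Pecam1 and Emcn not tested. Smooth muscle markers summed to 5450 to 6125 CPM in knockdown cells and 5324 to 5636 CPM in scramble cells, with 1 rising and 1 falling among 8; none rose without knockdown replicate 2, and none fell without knockdown replicate 1 or 3 or scramble replicate 2 or 3. Epicardial markers summed to 123 to 141 CPM in knockdown cells and 119.5 to 127 CPM in scramble cells, and the list of neural and Schwann cell markers to 44.1 to 49.8 CPM in knockdown cells and 47.6 to 53.9 CPM in scramble cells. None of the 4 erythroid markers passed the low-count filter. RNA of genes listed as fibroblast and smooth muscle markers was present in both groups, and no cell type was named from it. In bulk RNA fewer cells of a type and less RNA per cell cannot be told apart.

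The same knockdown was also made in cells treated with 10 µM 915 for 24 h, in 3 and 3 other libraries that share none with the vehicle comparison. There, 5152 genes passed (33.9%), of which 2691 fell and 2461 rose. Of the genes that fell in vehicle, 1555 also fell with 915 (80.9% of the vehicle falls and 57.8% of those with 915), and 799 rose in both (67.9% of the vehicle rises and 32.5% of those with 915). The sign was opposite for 14 and 9 genes. The test of the difference between the knockdown effects, with 915 minus with vehicle, called 566 genes (3.73%). Of these, 291 had passed in vehicle, and for 208 the effect with 915 was further from 0. The count of 566 varied with single libraries: it was 305 without knockdown vehicle replicate 1, 359 without replicate 3, 321 without scramble vehicle replicate 2, 365 without knockdown 915 replicate 2 and 259 without scramble 915 replicate 3.

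Several genes at the centre of the vehicle comparison fell further with 915. Perm1 had 7.71, 7.80 and 8.12 CPM in knockdown cells with 915 and 195, 179 and 214 CPM in scramble cells with 915, so that its log2 fold change was -4.64 with 915 and -3.68 with vehicle (difference -0.95, adjusted p = 2.31e-05). Esrrg did likewise (difference -0.88, adjusted p = 0.00482), and for Esrra the difference did not pass (-0.52, adjusted p = 0.326). Nppb, not called in vehicle, had 186, 160.1 and 237 CPM in knockdown cells with 915 and 679, 629.6 and 717 CPM in scramble cells with 915 (log2 -1.80; difference -1.53, adjusted p = 0.00527). Xirp2, an actin-binding repeat protein that rose in vehicle (log2 0.28), fell with 915 (log2 -1.16). Hk2 was low with the knockdown in 915 (log2 -0.97) and not in vehicle, a difference of -0.89 (adjusted p = 7.22e-08).

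The opposite was seen for a smaller set that includes fatty acid genes. Ucp3, lower with the knockdown in vehicle, had 3.30, 2.14 and 1.59 CPM in knockdown cells with 915 and 1.72, 2.06 and 1.98 CPM in scramble cells with 915 (log2 0.27; difference 1.99, adjusted p = 4.05e-04). Pdk4 fell in vehicle but stood at 76.4, 64.4 and 75.0 CPM in knockdown cells with 915 and 79.9, 82.8 and 69.7 CPM in scramble cells with 915 (log2 -0.11; difference 0.86, adjusted p = 9.92e-04). Of the 17 beta-oxidation genes, 5 had a called difference, all with the higher value with 915, among them Acadm (difference 0.37) and Acaa2 (difference 0.30). Of 29 Z-disc and costamere genes, 11 had a called difference, all with the lower value with 915, Ldb3 among them (difference -0.95). Over all genes tested 3.73% had a called difference. How these list counts vary when a library is left out was not tested.

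**Figure D5:**
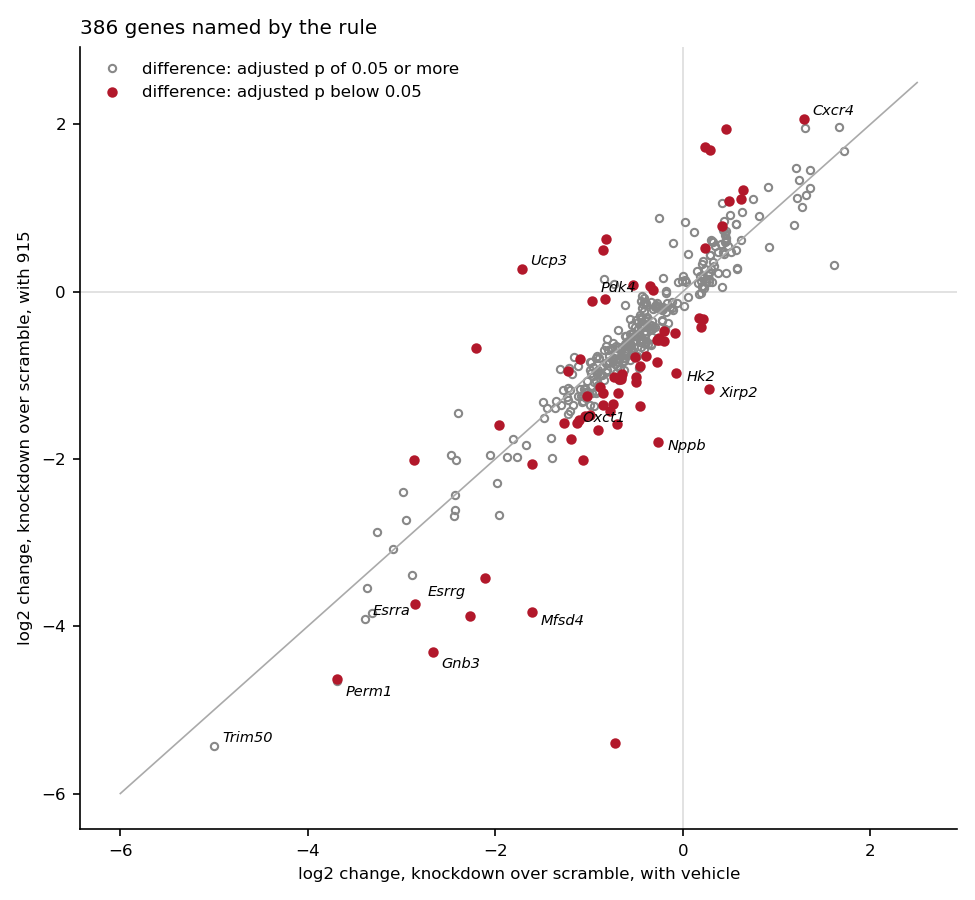
Log2 fold change, knockdown over scramble, of the 386 genes named by the rule, in vehicle (x axis) and with 915 (y axis); the 2 comparisons share no library. Filled red points have an adjusted p below 0.05 for the difference, and points below the diagonal line of equal effects have the lower value with 915, as Perm1, Nppb and Xirp2, while Ucp3 and Pdk4 lie above it.

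ERR proteins bind an extended half-site, searched here as TCAAGGTCA on both strands. Promoters were available for the mouse only, as RefSeq sequences of 300 bases (250 before and 50 after the start) on GRCm38.p6, and 9917 of 15020 rat symbols outside the mitochondrial genome (66.0%) matched one, too few to compare shares between groups of genes. The element was in 139 of 32851 mouse promoters (0.423%), and in 24 of the 9917 matched. It was in 3 of 166 genes that fell by at least 2-fold, 2 of 1197 that fell by less and 18 of 7715 that did not pass. Of genes that rose, it was in 1 of 53 that rose by at least 2-fold and 0 of 786 that rose by less. With 24 matches in all, these shares are not compared. The windows of 3 genes described here show where the element lies in the mouse, with the element in capitals as read on its reverse strand:

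Myh7b, chr2:155611177-155611225, + strand: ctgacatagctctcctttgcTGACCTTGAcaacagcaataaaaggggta

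Hcn2, chr10:79716446-79716494, + strand: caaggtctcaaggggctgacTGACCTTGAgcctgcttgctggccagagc

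Atp5g3, chr2:73911350-73911398, - strand: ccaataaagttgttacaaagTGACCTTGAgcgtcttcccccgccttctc

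In rat cells Myh7b had 33.2, 25.4 and 32.7 CPM in knockdown cells and 111, 102 and 108 CPM in scramble cells, Hcn2 had 27.7, 29.0 and 33.2 CPM in knockdown cells and 69.4, 64.7 and 72.3 CPM in scramble cells, and Atp5g3 had 164, 169 and 161 CPM in knockdown cells and 335, 294 and 307 CPM in scramble cells. The 3 genes fell, without overlap. A match in these letters is a description of the mouse sequence and no evidence of a bound site in rat cells.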

How the data were processed

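RNA of neonatal rat ventricular myocytes was sequenced without strand from poly(A)-selected libraries, per the labels' protocols. The submitters' processing notes name HISAT2 2.0.5, StringTie 1.3.3b, featureCounts 1.5.0-p3, DESeq2 1.20.0 and rn6. The authors deposited 1 rat table with raw counts per gene. Its other 12 per-sample columns, of normalized values, were not used, and the adjusted p-values and log2 fold changes deposited by the authors for the same comparison were read only to count shared calls. The 12 rat libraries were fitted as 4 groups with edgeR 4.0.16 in R 4.3.3 (quasi-likelihood, TMM, filterByExpr with a minimum count of 10, Benjamini-Hochberg adjusted p below 0.05), giving 8 residual degrees of freedom and a biological coefficient of variation of 0.104. CPM use TMM-scaled library sizes. All libraries differed from each other by more than counting noise.

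The gene lists (67 lists, 1325 distinct genes, 1243 tested), the pairs and the focus of the comparison were chosen with earlier results of these data known. Genes were named by rule: the 12 largest rises and falls among called genes of at least 5 CPM whose groups did not overlap, up to 5 called genes per list and up to 2 against its majority, both members of each pair, a fixed set around the receptors, and the 6 largest differences each way. Simulated counts with known changes were tested: at a log2 size of 1 the fit recovered 73% of changed genes for the vehicle comparison (7 false among 130 calls) and 62% for the difference, and at 0.5 it recovered 50% and 30%. Fewer genes were changed there than passed in the data, so these shares are no estimate of recovery in the data. DESeq2 1.42.0, RLE size factors, other filters, a replicate block, the 6 vehicle libraries alone and leaving out each library were alternatives. No rat genome or promoter sequence was used, and a few genes named by the rule are not reported here.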

Additional observations from a re-analysis of the deposited data

Results flagged for a closer look

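For 39 of the genes named above the knockdown effect differed between cells with 915 and cells with vehicle (interaction contrast of the edgeR fit, adjusted p below 0.05; 3.73% of all genes tested passed). The values below are the log2 fold change with 915 minus that with vehicle.

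Of these, 27 had the lower value with 915. Contractile genes and their regulators were Xirp2 (-1.44), Ldb3 (-0.95), Actc1 (-0.88), Mybpc3 (-0.75), Acta1 (-0.54) and the calcium pump inhibitor Pln (-0.52). Signalling and regulatory genes were Nppb (-1.53), Hopx (-0.62), Rcan1 (-0.57), Adra1a (-0.45) and Gata4 (-0.38), and receptors and coactivators were Perm1 (-0.95), Esrrg (-0.88) and Ppargc1b (-0.60). Metabolic genes were Oxct1 (-0.91), Hk2 (-0.89), Ldha (-0.57), Slc6a8 (-0.51), Slc25a5 (-0.49), Nnt (-0.45), Idh2 (-0.44), Acsl1 (-0.43), Lrpprc (-0.34), Cycs (-0.31), Ldhb (-0.28), Hk1 (-0.27) and Dlst (-0.23).

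The other 12 had the higher value with 915. Fatty acid and pyruvate genes were Ucp3 (1.99), Pdk4 (0.86), Slc27a1 (0.60), Acadm (0.37), Acaa2 (0.30) and Etfdh (0.28). Inflammatory and early response genes were Ncf1 (0.86), Cxcr4 (0.77), Egr1 (0.59), Cxcl1 (0.57), Ccl7 (0.49) and Irf1 (0.37).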

How the results depend on the processing

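The count of 3099 genes in vehicle kept its order under every alternative: 3106 with RLE size factors, 3119 without the low-count filter, 3142 with a minimum count of 50, 3126 by DESeq2, 3349 with the 6 vehicle libraries alone and 2338 to 2765 without 1 library, with no gene called in the opposite direction. The share of falls among called genes was 62.1%, and 70.1% without knockdown vehicle replicate 2. The difference test gave 566, 563 with RLE size factors, 726 without the filter, 607 with the stricter filter, 750 by DESeq2 and 259 to 677 without 1 library; the cause of that range was not tested. Deviations of same-numbered libraries correlated at 0.001 to 0.040 in vehicle, and those of other pairs at -0.029 to 0.013. With 915 the same-numbered pairs gave -0.027 to 0.001 and the others -0.023 to 0.047. These values, over all genes with their counting noise, do not decide whether replicate numbers pair the samples. With replicate number as a block 2941 and 542 genes passed. Of 1943 gene values under alternatives 1922 kept their direction and side of the threshold, 12 lost the call, 7 gained it and 2 changed sign: without 1 vehicle library the log2 fold change of Nppa lay between -0.17 and 0.021 and that of Tnnt2 between -0.084 and 0.0027, both above 0 without scramble vehicle replicate 1 and neither called.

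Small effects were often missed in simulated counts at the depth and replicate number of these libraries. A log2 change of 0.5 was recovered for 50% of genes in vehicle and 30% for the difference. The simulated counts gave 130 and 95 calls, against 3099 and 566 in the data. With fewer changed genes the adjustment is stricter, so these shares are no estimate of recovery in the data. A gene that did not pass is not shown to be unaltered.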

Other observations

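Of the 8256 symbols that averaged 20 CPM or more in a vehicle group, 13 varied at least 5-fold among the 3 libraries of a group; none of them passed the edgeR test, and all were named after their values were seen. Chchd10, a mitochondrial protein of the cristae, had 7.35, 8.20 and 60.2 CPM in knockdown cells and 361, 28.8 and 296 CPM in scramble cells, a log2 fold change of -3.20 with an adjusted p of 0.111 by edgeR and 0.025 by DESeq2. Knockdown replicate 3 exceeded scramble replicate 2, so the groups overlapped. Sepw1, a small selenoprotein, had 0.557, 0.721 and 1.07 CPM in knockdown cells and 30.5, 49.0 and 2.28 CPM in scramble cells (log2 -5.12, adjusted p = 0.0838 by edgeR and 0.00107 by DESeq2). Here every knockdown library lay below every scramble library, and scramble replicate 3 was far below the other two.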
